A study of Mus musculus with 13 samples.

Results

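IgA plasma cells were the barcodes of the colon single-cell libraries with 500 or more UMIs (a UMI is a molecular tag that counts 1 captured transcript), 200 or more genes and less than 25% of UMIs from mitochondrial genes, that held at least 5 UMIs each of Mzb1 and Jchain, none of Ms4a1 or Cd3e, at least 1% of all UMIs from Igha, and more Igha than IgG and IgM heavy chain UMIs together. Of 118892 retained barcodes, 3715 met this definition, with 3394 of 93871 in colon tumors and 321 of 25021 in adjacent mucosa. The libraries were 10 colon tumors and 3 pieces of adjacent mucosa from 3 C57BL/6J mice, all of genotype ApcMin/+; p16cis/cis and all on the supplemented diet, so neither group differed in alleles or diet. ApcMin/+ mice carry a germline truncating mutation of the Apc tumor suppressor in all tissues, and p16cis/cis mice carry an inserted element that promotes methylation of the p16 promoter. Mouse A (24 weeks old) gave tumors 5 to 8 and mucosa 2, mouse B (23 weeks) gave tumors 9 and 10 and mucosa 3, and mouse C (20 weeks) gave tumors 1 to 4 and mucosa 1. The tumors of 1 mouse are not separate animals, so p-values measure the spread between tissue pieces of 3 mice. Mucosa was taken apart with EDTA and then TrypLE, whereas tumors were digested with an enzyme kit, so tissue and dissociation cannot be told apart in any comparison of tumor with mucosa.

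IgA is the main antibody class of the gut. Plasma cells of the lamina propria secrete it as dimers joined by the J chain (Jchain), and the polymeric immunoglobulin receptor of the epithelium carries these across into the lumen. A plasma cell is an antibody factory with an expanded endoplasmic reticulum (ER), whose growth is driven by the transcription factor Xbp1, and each cell assembles its antibody from 1 rearranged heavy chain V gene and 1 rearranged kappa or lambda light chain V gene. Homing of IgA plasma cells to the colon depends on the chemokine receptor Ccr10 and on the integrin pair of Itga4 and Itgb7.

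The cells carried plasma cell genes that the definition had not used. Derl3, an ER degradation factor, was detected in 84.6% to 88.9% of IgA plasma cells per library against 0.450% to 1.22% of the other barcodes. Ccr10 was detected in 55.2% to 93.3% against 0.171% to 0.913%, and Tnfrsf17, the receptor for the survival factor APRIL, in 54.0% to 93.3% against 0.0546% to 0.528%. Sdc1 and Prdm1 separated the cells less, at 37.8% to 85.2% against 18.5% to 34.5% and at 14.7% to 68.9% against 2.34% to 16.5%. Genes listed here as markers of other cells were detected in the members too. In tumors, the epithelial gene Epcam was detected in 69.7% to 81.3% of members against 22.4% to 32.7% of the other barcodes, and in mucosa in 53.3% to 65.0% against 61.0% to 87.1%. In tumors, the myeloid genes S100a8 and Lyz2 were detected in 15.8% to 71.4% and 12.1% to 42.4% of members, against 45.1% to 77.4% and 43.5% to 76.7% of the other barcodes. These shares describe the selected cells and were not tested. They also depend on depth. The median retained barcode held 4029 to 5435.5 UMIs in tumors, against 14624.5 to 19168 for the median member, and 8238.5 to 10816 in mucosa, against 6965 to 13767. Near the limits of the definition, 85 members (41 in mucosa, 44 in tumors) had Igha at 1% to 2% of their UMIs and 11 further barcodes lay just outside at 0.5% to 1%, while 182 members had Mzb1 or Jchain at 5 to 9 UMIs and 105 further barcodes lay just outside at 2 to 4.

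Mucosa 1 held 45 IgA plasma cells, mucosa 2 held 116 and mucosa 3 held 160, against 91 to 513 per tumor (median 335). The median IgA plasma cell held 13767 UMIs in mucosa 1, 6965 in mucosa 2 and 8649.5 in mucosa 3, and 14624.5 to 19168 in the tumors. Immunoglobulin genes took 29.5%, 43.5% and 47.3% of the UMIs of the median cell in the 3 mucosa libraries and 45.4% to 56.2% in tumors. Igha took 3.13%, 7.21% and 5.53% in mucosa and 6.59% to 8.53% in tumors, so mucosa 1 stood below every other library on both measures. Igha UMIs also occurred outside plasma cell barcodes. At least 1 was held by 3.45% to 17.2% of the other barcodes in mucosa and 15.4% to 74.8% in tumors, and their source was not tested. No member barcode was a member in a second library, and at most 39 retained barcodes were shared by any of the 78 pairs of libraries. The labels called 7 of 13 libraries female, yet Xist was at most 0.129 and the Y-linked Ddx3y 29.1 to 50.7 per 1000000 deposited UMIs in every library, and 2 of the mice carried both labels.

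V genes were called in these cells from the UMIs that the deposited counts assign to each V gene. A heavy chain V gene was called in 87.4% of members, a light chain V gene in 63.6% and both in 56.0%. The sequences shown are examples of V gene pairs found in a single mouse and of one found in all mice. Ighv1-84 with Igkv4-61 was the most frequent heavy and light chain pair found in a single mouse (mouse C), Ighv6-6 with Igkv6-15 was among the most frequent found in mouse A alone, and Ighv1-50 with Iglv1 was the most frequent pair of all, with 43 cells, 38 of which also carried a lambda constant gene. Each sequence is the last 290 bases of the second coding exon, which holds most of the variable domain, in GRCm38 with the GENCODE annotation, 5′ to 3′ on the minus strand. Capitals mark the bases that differ from the most similar other V gene of the same locus. The difference counts given after the sequences also include positions where a base of that neighbour is missing here, which no capital can mark, so the capitals number 10, 9, 20, 13, 8 and 7 in the order shown.
Ighv1-84: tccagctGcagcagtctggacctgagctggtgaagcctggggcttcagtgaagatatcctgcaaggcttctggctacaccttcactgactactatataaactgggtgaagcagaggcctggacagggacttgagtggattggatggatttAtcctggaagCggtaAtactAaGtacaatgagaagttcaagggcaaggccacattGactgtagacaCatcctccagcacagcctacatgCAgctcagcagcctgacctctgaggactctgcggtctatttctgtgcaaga
Igkv4-61: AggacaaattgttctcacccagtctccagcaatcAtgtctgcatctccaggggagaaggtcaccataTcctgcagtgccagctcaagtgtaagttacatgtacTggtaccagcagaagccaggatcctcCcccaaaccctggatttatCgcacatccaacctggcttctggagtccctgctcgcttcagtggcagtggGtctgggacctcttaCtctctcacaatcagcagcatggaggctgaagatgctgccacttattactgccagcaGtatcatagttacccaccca
Ighv6-6: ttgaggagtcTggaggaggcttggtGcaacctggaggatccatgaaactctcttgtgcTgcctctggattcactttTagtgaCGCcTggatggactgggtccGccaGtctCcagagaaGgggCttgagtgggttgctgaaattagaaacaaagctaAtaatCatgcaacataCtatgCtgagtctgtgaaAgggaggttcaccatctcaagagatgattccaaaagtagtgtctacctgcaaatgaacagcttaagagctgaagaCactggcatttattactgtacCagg
Igkv6-15: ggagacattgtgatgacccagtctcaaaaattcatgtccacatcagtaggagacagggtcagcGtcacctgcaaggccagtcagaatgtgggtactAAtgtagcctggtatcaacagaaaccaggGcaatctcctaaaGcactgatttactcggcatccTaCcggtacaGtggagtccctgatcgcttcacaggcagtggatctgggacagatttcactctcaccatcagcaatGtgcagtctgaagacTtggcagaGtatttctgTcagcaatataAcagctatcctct
Ighv1-50: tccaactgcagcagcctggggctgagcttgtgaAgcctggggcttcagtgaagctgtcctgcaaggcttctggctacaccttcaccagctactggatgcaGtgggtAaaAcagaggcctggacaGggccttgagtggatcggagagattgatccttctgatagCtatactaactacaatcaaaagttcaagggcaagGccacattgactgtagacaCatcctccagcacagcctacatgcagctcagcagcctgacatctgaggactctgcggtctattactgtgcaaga
Iglv1: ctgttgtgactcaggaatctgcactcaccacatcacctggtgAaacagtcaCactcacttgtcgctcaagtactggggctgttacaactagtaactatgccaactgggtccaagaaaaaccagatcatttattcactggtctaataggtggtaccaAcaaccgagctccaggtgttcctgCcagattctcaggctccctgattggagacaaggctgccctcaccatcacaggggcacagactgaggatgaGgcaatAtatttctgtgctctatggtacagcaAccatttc
The Ighv1-84 stretch (chr12:115980702-115980991) differed from Ighv1-75 at 11 bases, and the Igkv4-61 stretch (chr6:69416893-69417182) from Igkv4-54 at 10. Ighv6-6 (chr12:114434788-114435077) differed from Ighv6-5 at 22 bases and Igkv6-15 (chr6:70406469-70406758) from Igkv6-13 at 14. Ighv1-50 (chr12:115119748-115120037) differed from Ighv1-69 at 8 bases and Iglv1 (chr16:19085017-19085306) from Iglv2 at 7. Among the 88 heavy chain V genes called, the median identity to the nearest neighbour was 95.5%, and 10 had a neighbour at least 98% identical, so a call between such neighbours is uncertain.

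The V gene pairs of IgA plasma cells were shared more often between tumors of the same mouse than between tumors of different mice. For each pair of tumors, the measure was the percent of cell pairs, 1 cell from each tumor, with the same heavy and the same light V gene. It averaged 0.434% (range 0.263% to 0.589%) over the 13 pairs of tumors within a mouse and 0.225% (range 0.104% to 0.385%) over the 32 pairs between mice. The difference of 0.209 percentage points was the largest that any assignment of the 10 tumors to the mice gave (exact two-sided permutation test, p = 0.000635, the smallest possible; adjusted p = 0.00444 over 7 comparisons of single values). Within-mouse sharing averaged 0.331% in mouse A, 0.350% in mouse B, which had a single pair of tumors, and 0.551% in mouse C. Heavy chain V genes alone were shared at 2.50% within mice and 2.32% between mice, and pairs with a kappa light chain at 0.449% and 0.172%. The light V call could be checked against the light chain constant genes of the same cell. All 1927 cells with a kappa V call were kappa by their constant genes, but of 425 cells with an Iglv1 call 171 were lambda and 254 kappa, so most Iglv1 calls went against the constant genes. In the 1861 cells with a V pair whose light V and constant genes gave the same chain, sharing was 0.456% within mice and 0.187% between them (exact permutation p = 0.000635, an alternative chosen after seeing the data).

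**Figure D1:**
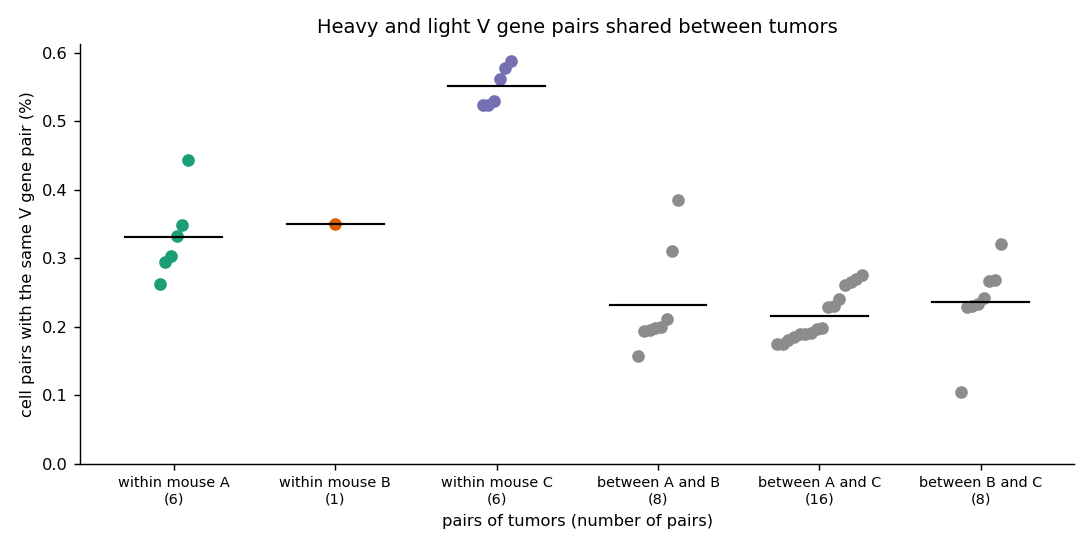
Percent of cell pairs with the same heavy and light V gene (vertical axis) for each pair of tumors, grouped by mouse or by the 2 mice compared; each dot is 1 pair of tumors and each line the mean of a group. Pairs of tumors within mouse C reach the highest values (mean 0.551%), and the pairs between mice average 0.225%.

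The 2079 cells with both V genes called (56.0% of members) held 770 distinct pairs, of which 602 occurred in 1 mouse, 122 in 2 and 46 in all 3. A pair seen in 1 cell can occur in 1 mouse only, and 393 of the 602 were such pairs. In the 1861 cells with light V and constant genes of the same chain there were 738 pairs, 595 of them in 1 mouse (392 seen in 1 cell) and 29 in all 3. Of the 111 pairs seen in at least 5 cells, 36 occurred in a single mouse, and 35 of these 36 were present in 2 or more tumors of it. Ighv1-84 with Igkv4-61 was found in 16 cells, 6, 4, 5 and 1 in tumors 1 to 4 of mouse C, and in no other library. Ighv6-6 with Igkv6-15 was found in 11 cells, 1, 5, 3 and 2 in tumors 5 to 8 of mouse A. Ighv5-6 with Igkv12-44 was found in 9 cells of mouse B, 3 of them in the mucosa, 5 in tumor 9 and 1 in tumor 10. The most frequent pair, Ighv1-50 with Iglv1, occurred in all mice, with 28 cells in mouse C, 12 in mouse A and 3 in mouse B. Of these 43 cells 38 were lambda by their constant genes and 5 kappa, and with the 38 it was still the most frequent pair, ahead of Ighv1-81 with Igkv1-110 (36 cells). A shared pair means the same V genes only, since the junction that identifies a clone was not read.

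Mucosa of mice B and C shared V pairs with tumors of the same mouse at 0.310% and 0.627%, against 0.215% and 0.133% with tumors of the other mice, and mucosa of mouse A at 0.330% against 0.451%. The mouse A value rests on 23 cells with a called pair and the others on 92 and 31, and the differences were not tested. Within a library, 2 cells carried the same V pair in 1.08%, 0.791% and 0.454% of cell pairs in the 3 mucosa libraries and in 0.314% to 0.751% in tumors, a difference of -0.305 percentage points (exact permutation test within mice, two-sided p = 0.0267, adjusted p = 0.0373; lower in 9 of 10 tumors than in the mucosa of the same mouse). Split by animal, the difference was -0.0313 for B, whose mucosa had 92 cells with a called pair and where tumor 9 (0.517%) exceeded it. It was larger for A (-0.422, 23 mucosa cells) and for C (-0.460, 31 mucosa cells). Just 4 of those 23 and 7 of those 31 cells carried a pair seen again in their library, so the difference rests mostly on few mucosa cells. Without mucosa 1 the difference was -0.227 and without mucosa 2 it was -0.246 (exact permutation p = 0.133 for each). The 15 assignments left in each allow no p below 0.0667. In cells with light V and constant genes of the same chain it was -0.333 (exact permutation p = 0.0267). Ighv3-6 was the most frequent heavy chain V gene (196 cells, all 13 libraries), ahead of Ighv1-81 (171 cells) and Ighv1-26 (157 cells). The percent of cell pairs with the same heavy V gene was 1.35%, 6.90% and 2.30% in mucosa 1, 2 and 3 and 2.29% to 2.77% in tumors, a difference of -0.974 that missed the threshold (exact permutation p = 0.2, adjusted p = 0.2). Just 29 cells of mucosa 2 had a heavy chain call, and without that library the difference was 0.704.

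IgA plasma cells made up a larger share of the retained barcodes in tumors than in mucosa, while their ratios to barcodes with leukocyte genes missed the threshold. The share was 0.867%, 1.09% and 1.75% in mucosa 1, 2 and 3, and in the tumors its lowest value was 1.23%, its median 3.54% and its highest 5.47%. The groups overlapped, and 9 of 10 tumors exceeded their own mouse's mucosa, tumor 10 being the exception. The difference was 2.16 percentage points (SD 1.39 over 3 mice; 3.11 in mouse A, 0.562 in mouse B, 2.81 in mouse C), with an exact two-sided permutation p of 0.0267 over the 75 assignments within mice (adjusted p = 0.0373; the smallest possible p is 0.0133). Per 100 barcodes with a UMI of the pan-leukocyte gene Ptprc, the cells numbered 2.34, 8.23 and 7.26 in mucosa and 2.01 to 9.50 in tumors, a difference of -0.673 (exact permutation p = 0.693; 3.75 in mouse C, -2.0 in mouse A and -3.77 in mouse B). Per 100 barcodes with a UMI of the T cell gene Cd3e or the B cell gene Ms4a1, they numbered 2.67, 10.9 and 10.5 in mucosa and 5.04 to 112 in tumors, a difference of 43.1 (exact permutation p = 0.08). The definition excludes both genes from members, so this ratio sets them against barcodes that could not be members. A barcode can hold a single UMI of these genes from free RNA. A share of barcodes depends on which cells each dissociation released, and without any of tumors 1, 6, 7 and 8 the share of all barcodes missed the threshold (exact permutation p = 0.0667 over 60 assignments for each). Without mucosa 1 the difference was 1.84 (exact permutation p = 0.133) and without mucosa 2 it was 1.69 (exact permutation p = 0.2). The 15 assignments left in each allow no p below 0.0667.

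**Figure D2:**
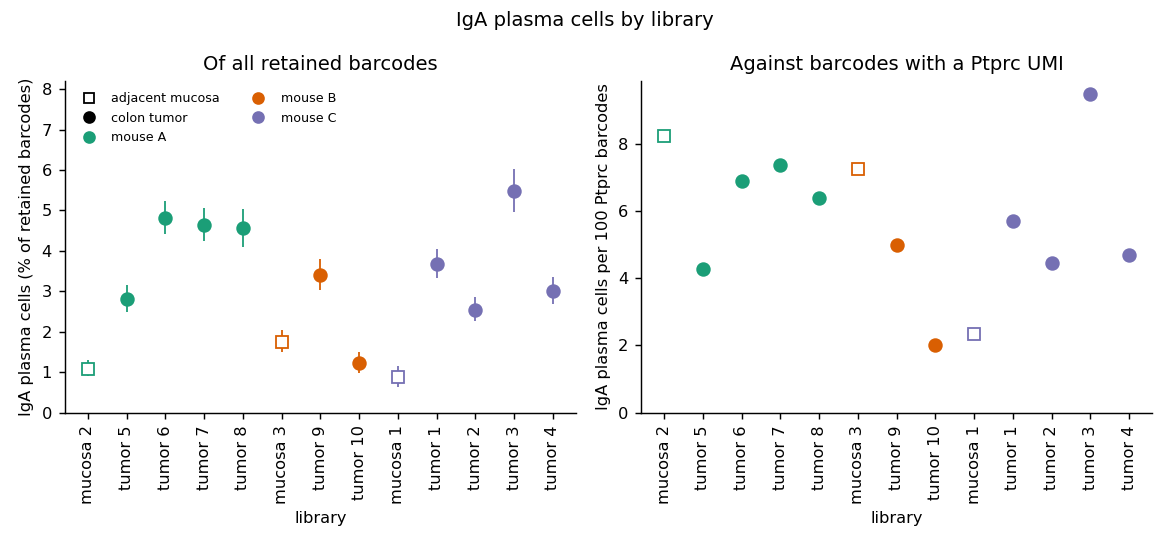
IgA plasma cells per library as a percent of retained barcodes (left, bars are exact 95% binomial intervals, which cover counting error only) and per 100 barcodes with a Ptprc UMI (right), mucosa as squares and tumors as dots by mouse. On the left 9 of 10 tumors lie above the mucosa of their mouse, and on the right all 3 mucosa libraries lie within the tumor range, mucosa 2 (8.23) and mucosa 3 (7.26) above every tumor of their own mouse and mucosa 1 (2.34) below every tumor of its own.

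IgA was the class of most barcodes selected as plasma cells. The selection required 5 or more UMIs of Jchain, so plasma cells of any class with less Jchain were not counted. The class calls use the Igha limit of the definition, so the shares of classes are read as descriptions and their test results are not given. The IgA and IgG shares were still among the 7 single-value comparisons over which p-values were adjusted. Among barcodes passing the Mzb1, Jchain, Ms4a1 and Cd3e limits, 88.2%, 87.9% and 92.5% were IgA in mucosa and 96.0% to 99.4% in tumors (difference 8.03; 10.2 for mouse A, 4.43 for B and 9.49 for C). IgG cells were 3.92%, 5.30% and 2.31% of plasma cells in mucosa and 0.581% to 3.40% in tumors (difference -1.86; -3.74 in mouse A, 0.461 in mouse B, -2.31 in mouse C), which are 2 to 11 cells per library. A further 4, 9 and 9 plasma cell barcodes of the mucosa libraries and 0 to 5 of each tumor reached no class, and among those with a class the difference in IgA was 2.11 percentage points. Lambda light chains were used by 11.1%, 4.31% and 4.38% of IgA plasma cells in mucosa 1, 2 and 3 (5, 5 and 7 cells) and by 1.10% to 9.12% in tumors, a difference that missed the threshold (-2.22, exact permutation p = 0.0667, adjusted p = 0.0778). In tumors the lambda share was 4.76% to 9.12% in mouse C, 3.34% to 4.87% in mouse A and 1.10% to 2.25% in mouse B.

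For gene expression, the UMIs of all IgA plasma cells of a library were summed, and levels are given as CPM, UMIs per 1000000 outside the immunoglobulin and definition genes. In such sums, fewer transcripts in every cell and fewer cells carrying a transcript cannot be told apart. Of 9921 genes tested with edgeR's quasi-likelihood test, 2323 (23.4%) differed between tumor and mucosa at an adjusted p below 0.05, 1129 (11.4%) higher and 1194 (12%) lower in tumors, and for 1708 genes (17.2%) the groups did not overlap. The median log2 difference over all genes was 0.04. Transcripts of other cells moved with the comparison. All 10 neutrophil markers were higher in tumor IgA plasma cells (summed level 1303 to 5414 CPM against 0 to 7.50 in mucosa, with 6 markers at 0 in all mucosa libraries), 6 of 10 monocyte and macrophage markers were higher (249 to 3260 CPM against 18.4 to 129), and 13 of 15 epithelial markers were lower (541 to 1366 CPM against 3670 to 12724). Epcam was among the 2 epithelial markers that missed the threshold, and 1 of 2 B cell markers tested was higher, of 8 T cell, 5 erythrocyte and 1 mast cell markers tested none passed, and no fibroblast marker was abundant enough to test. Removing the 363 members scored as doublets (24 in mucosa, 339 in tumors) lowered the neutrophil sum to 98.2 to 936 CPM in tumors and 0 to 3.23 in mucosa, brought the epithelial sums to 366 to 1239 CPM in tumors and 326 to 3142 in mucosa, which overlap, and left 994 changed genes of 8838. Of the 2323 genes, 1369 were less abundant in the group where they were higher than among the other barcodes of that tissue; the 30 genes named for the size of their change come from the remainder, whereas list members are given whatever that level. Of the changed list members described with their lists below, Cd38, Cd44, Mcl1, Bcl2l11, Ppp1r15a, Junb, Nfkbia, Tpi1, Stmn1 and H2-DMa were below the other barcodes in the group where they were higher, and the part of other cells in each result was not tested.

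**Figure D3:**
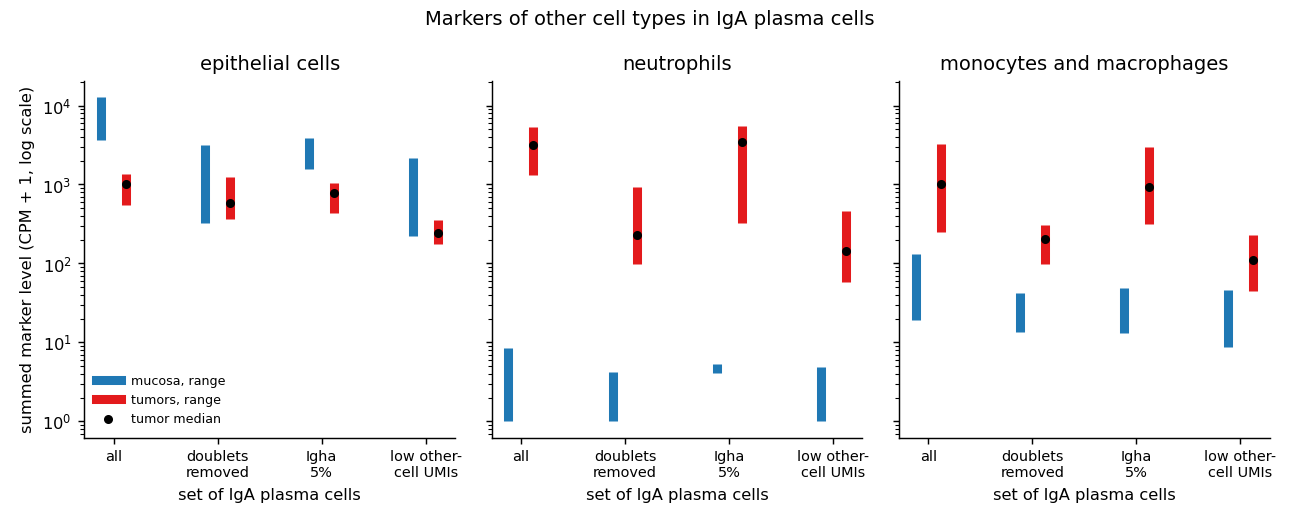
Summed CPM (log axis, 1 added) of epithelial, neutrophil, and monocyte and macrophage markers in IgA plasma cells, as the range over libraries of each tissue, for all members and for 3 narrower sets of them. The neutrophil sum stays above the mucosa range in every set of tumor cells, at 57.8 to 467 CPM against 0 to 3.87 in the set with the fewest transcripts of other cells.

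Slpi, an inhibitor of neutrophil elastase and other secreted proteases, was higher in tumor IgA plasma cells. Its level was 477, 217 and 398 CPM in mucosa 1, 2 and 3, and in tumors 3972 at the lowest, 5165 at the median and 6390 at the highest. The groups stood far apart, and the log2 difference was 3.97 ± 0.26 (SE; edgeR adjusted p = 9.64e-09). The other barcodes held 1155 CPM of Slpi in tumors and 269 in mucosa, below the tumor IgA plasma cells, and the log2 difference stayed between 3.32 and 4.27 under all 27 alternative settings. Prg2, best known as the major basic protein of eosinophil granules, was 11.5, 0 and 3.25 CPM in mucosa and 60.5 to 214 in tumors (median 103), the largest log2 difference among the named genes at 4.94 ± 0.75 (adjusted p = 6.74e-04). Other barcodes averaged 0.646 CPM of Prg2 in tumors and 0.0299 in mucosa, which is below every tumor's IgA plasma cells. Tmem176a and Tmem176b, neighbouring genes for membrane proteins on opposite strands whose annotated 5′ ends overlap head to head (GRCm38 chr6:48840919-48847071 on the plus strand and chr6:48833818-48841496 on the minus strand), were both higher. Tmem176a was 172, 141 and 173 CPM in mucosa and 885 to 1506 in tumors (log2 difference 3.05 ± 0.20, adjusted p = 9.64e-09), and Tmem176b 206, 217 and 241 CPM against 820 to 1397 (2.55 ± 0.20, adjusted p = 7.21e-08).

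Several of the other genes named as higher in tumors act in signalling. Irs2, an adaptor of the insulin and IGF receptors, was 6.88, 9.37 and 19.5 CPM in mucosa and 35.2 to 85.5 in tumors (median 65.2; log2 difference 2.40 ± 0.33). Ifnar2, a chain of the type I interferon receptor, was 61.9, 22.5 and 40.1 CPM in mucosa and 140 to 216 in tumors (2.20 ± 0.23). Cacna1s, a calcium channel subunit best known from skeletal muscle, was 98.6, 54.3 and 71.5 CPM in mucosa and 184 to 304 in tumors (1.85 ± 0.21), against 3.92 CPM in the other tumor barcodes. Dusp5 and Dusp4, phosphatases that switch off ERK kinases, had log2 differences of 2.68 ± 0.45 and 1.84 ± 0.55. Dusp4 lost its call in 6 of the 27 alternatives, among them the removal of doublets and of any mucosa library. Serpina3g, a protease inhibitor (3.29 ± 0.65), Sik1, a kinase of the salt-inducible family (1.79 ± 0.28), Ppp1r10, a regulator of protein phosphatase 1 (1.82 ± 0.30), and Adssl1, an enzyme of purine synthesis (1.73 ± 0.20), were also higher, as were Eif2ak3 and Fosb, described with their groups below. Every tumor exceeded every mucosa library for each of these 15 genes because they were chosen that way, and the 15 genes named as lower were chosen likewise.

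Among genes lower in tumors was Pycard, the adaptor ASC of the inflammasome. It was 5205, 2449 and 3744 CPM in mucosa 1, 2 and 3 and 488 to 1370 in tumors (median 764; log2 difference -2.10 ± 0.24, adjusted p = 3.05e-05). Klf2, a transcription factor of lymphocyte quiescence and trafficking, was 1314, 302 and 381 CPM in mucosa and 47.9 to 202 in tumors (-2.45 ± 0.49), but without mucosa 1 the difference was -1.41 and missed the threshold. Gimap7, a GTPase of lymphocytes, was 172, 178 and 142 CPM against 30.7 to 71.9 (-1.69 ± 0.22). Rom1, best known from photoreceptor discs, was 61.9, 56.2 and 72.6 CPM against 9.42 to 30.4 (-1.87 ± 0.28), with 2.42 CPM or less in the other barcodes of either tissue. Kctd14 (-2.45 ± 0.21) and Sfn, the cell cycle regulator 14-3-3 sigma (-1.80 ± 0.31), were lower too. The linker histones Hist1h1b (-2.27 ± 0.38), Hist1h1e (-2.13 ± 0.19) and Hist1h1d (-1.98 ± 0.25) were lower together with H2afx (-1.62 ± 0.23), a histone variant of DNA damage signalling. Anxa2 (-1.99 ± 0.41) and S100a10 (-1.67 ± 0.37), which bind each other at membranes, were both lower, as were Gmfg, an actin regulator (-1.55 ± 0.40), Ube2c (-1.65 ± 0.34) and Ccnb2 (-1.82 ± 0.29). S100a10, Gmfg and Klf2 lost their calls without mucosa 1. In mucosa some genes stood close to the mean CPM of the other barcodes, as Anxa2 (513 against 473), S100a10 (1011 against 818), Sfn (182 against 152), Ccnb2 (67.7 against 64.3) and Ube2c (276 against 217). Others stood further above it, such as Pycard (3799 against 896) and Gimap7 (164 against 27.9). The part of other cells in these differences was not tested. Of the 30 named genes, 19 kept their calls in all 27 alternatives (12 higher and 7 lower), and none changed sign in any. They were chosen without overlap between the groups, which makes a change of sign unlikely. Of the 151 genes followed, named or called in a list, 38 kept their calls in every alternative that tested them and 8 changed sign in some.

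**Figure D4:**
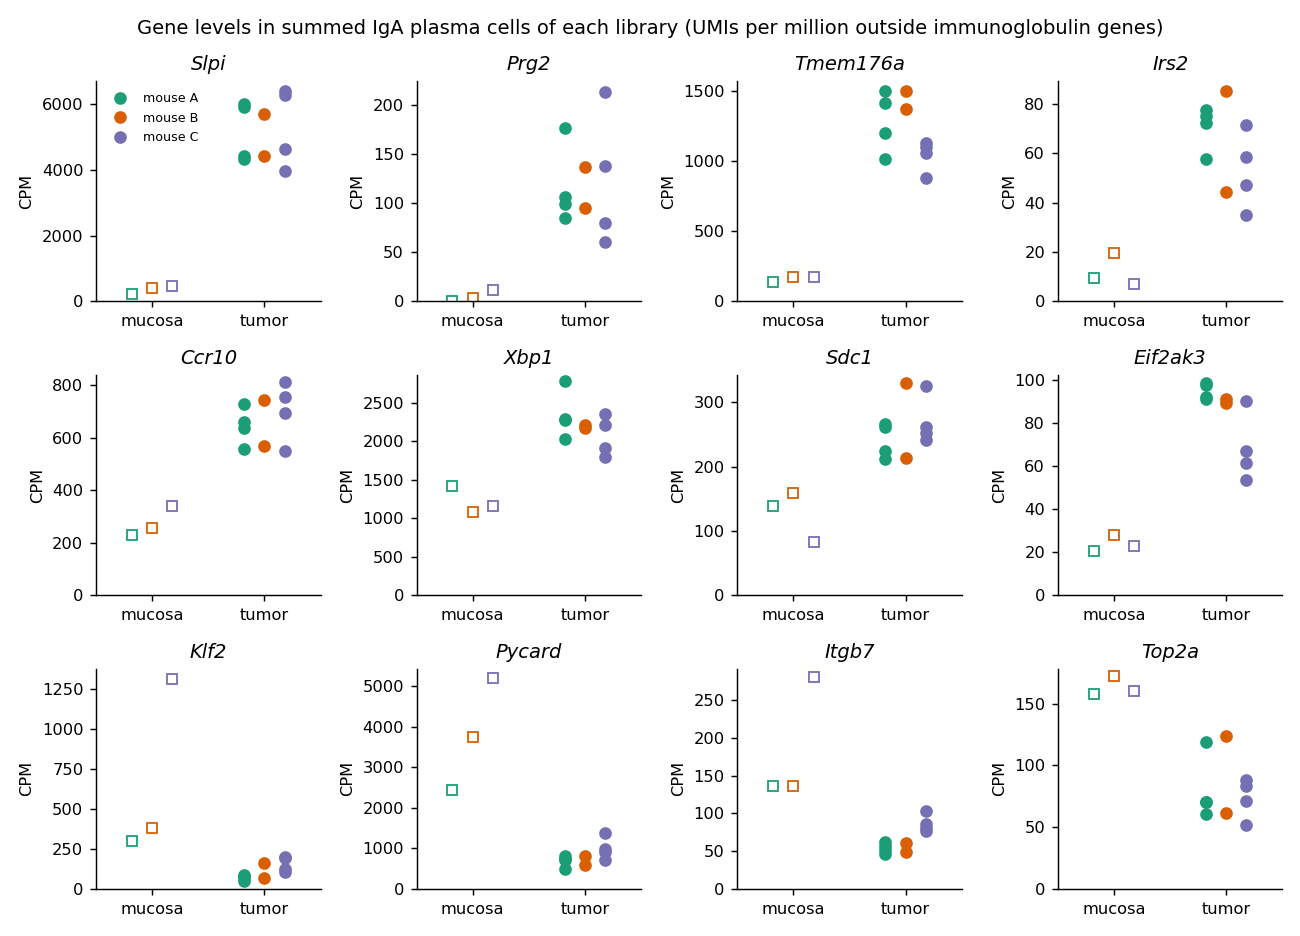
CPM in summed IgA plasma cells for 12 genes, 1 panel each, mucosa as squares and tumors as dots by mouse; each symbol is 1 library. Slpi, Tmem176a, Ccr10 and Xbp1 lie higher in all 10 tumors than in any mucosa library, and Pycard, Klf2, Itgb7 and Top2a lower.

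Of the 16 plasma cell identity genes, 8 were higher and 3 lower in tumors (median log2 difference 0.41, against 0.04 over all genes tested). Over all genes, 11.4% were higher and 12% lower. Xbp1 was 1161, 1420 and 1076 CPM in mucosa and 1787 to 2776 in tumors, without overlap (log2 difference 1.00 ± 0.15, adjusted p = 0.00012). Sdc1, the plasma cell surface proteoglycan CD138, was 82.6, 139 and 159 CPM against 211 to 330 (1.16 ± 0.19), and Tent5c, which lengthens the poly(A) tails of antibody transcripts, also rose (0.85 ± 0.13). Irf4, the transcription factor that maintains plasma cells, was lower (179, 159 and 130 CPM against 47.4 to 119; -0.82 ± 0.20). Tnfrsf17 was 895, 322 and 399 CPM in mucosa and 158 to 340 in tumors (-1.14 ± 0.28), and Cd38 was lower too. Irf4 and Tnfrsf17 lost their calls without mucosa 1, where the Tnfrsf17 difference was -0.48. Prdm1, which encodes the plasma cell regulator Blimp-1 (0.29 ± 0.32, adjusted p = 0.569), and Derl3 (-0.28 ± 0.15, adjusted p = 0.197) missed the threshold. Among cells with Igha at 5% or more of UMIs, a set of 2806 tumor and 179 mucosa cells without mucosa 1, no identity gene was higher and 5 were lower (median 0.07), at 438 changed genes of 9319 tested. Of 6 tested genes of the B cell program, which is shut down in plasma cells, 2 were higher and 1 lower. With doublets removed 0 of 5 were higher and 3 lower, against 447 and 547 of 8838 over all genes. Without mucosa 2 none of 7 passed in either direction (median -0.36, against -0.45 in all members), and without mucosa 1, mucosa 3 or any of tumors 3, 6, 8 and 10 a single gene was higher.

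Homing and retention genes moved in both directions, with 6 of 16 higher and 4 lower (median 0.21). Ccr10, the receptor for the epithelial chemokine CCL28, was 339, 230 and 257 CPM in mucosa and 550 to 811 in tumors (log2 difference 1.42 ± 0.18, adjusted p = 1.54e-05). The groups did not overlap, and the call held in all 27 alternatives. Itgb7, the beta chain of the gut homing integrin, was 280, 137 and 137 CPM in mucosa and 46.5 to 103 in tumors (-1.30 ± 0.27, adjusted p = 0.0036), also called in all 27. Its partner Itga4 gave 215.6 to 397 CPM in mucosa and 201 to 352 in tumors (-0.03 ± 0.20, adjusted p = 0.953). S1pr1, the receptor by which lymphocytes leave tissue and a target of Klf2, was 27.5, 11.2 and 13 CPM against 0.956 to 6.35 (-2.47 ± 0.52), and the chemokine receptor Cxcr3 was lower (-1.64 ± 0.46). Itgal, a chain of the integrin LFA-1, was higher (1.27 ± 0.21), and so was the hyaluronan receptor Cd44 (0.82 ± 0.18). Without doublets 2 of 14 were higher and 4 lower (median -0.13), and without mucosa 3 the counts were 3 and 3 of 16 (median 0.25). Among 14 survival genes, Mcl1 (0.63 ± 0.15), the anti-apoptotic factor on which plasma cells depend, and its antagonist Bcl2l11 (2.54 ± 0.50) were the 2 that rose, and other tumor barcodes held more of both. Tnfrsf17, given above, was the 1 survival gene that was lower (median 0.47). Over all genes, 11.4% were higher and 12% lower.

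Genes of ER quality control were higher in part. Of 12 genes of ER-associated degradation, which returns misfolded proteins to the cytosol, 8 were higher and none lower in the fit over all members (median 0.56). Herpud1, a scaffold of this machinery, was 523, 508 and 634 CPM in mucosa and 841 to 1203 in tumors (log2 difference 0.95 ± 0.14, adjusted p = 1.12e-04). Edem1, a lectin that extracts misfolded glycoproteins, was 443, 622 and 591 CPM against 763 to 966 (0.82 ± 0.14). Edem2 (0.99 ± 0.17), Edem3 (1.37 ± 0.24) and Sel1l (0.94 ± 0.15) were higher as well. With doublets removed 5 were higher and 1 lower (median 0.30), and at Igha of 5% or more none was higher and 1 lower (median 0.16). Over all genes, 11.4% were higher and 12% lower in all members. Without doublets 447 genes were higher and 547 lower of 8838, and at Igha of 5% or more 218 and 220 of 9319. Of 21 ER chaperones and folding enzymes, 7 were higher and 1 lower (median 0.14), against 1 and 4 at Igha of 5% or more (median -0.24). Fkbp2, a prolyl isomerase, was 1108, 749.6 and 1000.2 CPM against 1602 to 2129 (1.10 ± 0.16), and Dnajb9, a co-chaperone of BiP, rose by 1.23 ± 0.24. The main chaperones did not pass, with Hspa5 (BiP) at 1695, 3167 and 1763 CPM in mucosa and 1555 to 2698 in tumors (0.06 ± 0.19, adjusted p = 0.875) and Hsp90b1 (GRP94) at 0.11 ± 0.13 (adjusted p = 0.578).

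The 3 sensors of the unfolded protein response are Ern1, Eif2ak3 and Atf6. Eif2ak3 (PERK) was 22.9, 20.6 and 28.2 CPM in mucosa and 53.4 to 98.7 in tumors (log2 difference 1.91 ± 0.23, adjusted p = 1.26e-05), called in all 27 alternatives. Atf6 was 71.1, 63.7 and 101 CPM against 119 to 198 (1.12 ± 0.17), and Ern1 (IRE1 alpha) missed the threshold (0.82 ± 0.30, adjusted p = 0.0531). With Xbp1 and Creb3l2, 4 of the 5 tested genes of this group were higher (median 1.00), 4 without doublets (median 0.73) and 1 at Igha of 5% or more (median 0.61). Of 10 genes of the integrated stress response, which lies downstream of PERK, 4 were higher and 1 lower, and 2 were higher and none lower without doublets (median 0.80, against 0.86 in all members) or without mucosa 3 (median 0.96). Atf4 was 216, 171 and 169 CPM against 235 to 443 (1.05 ± 0.19), and Ppp1r15a, the phosphatase subunit that ends the response, 32.1, 37.5 and 31.4 CPM against 82.5 to 157 (1.92 ± 0.21). Amino acid transporters were higher for 4 of 9 tested, with Slc3a2, the shared heavy subunit, at 128, 159 and 151 CPM against 320 to 546 (1.71 ± 0.21). Without doublets 4 of 8 were higher (median 0.75, against 0.64 in all members). At Igha of 5% or more 2 of 9 were (median 0.63), and in cells with few transcripts of other cells 2 of 7 (median 0.51). Of 21 translocon, signal peptidase and glycosylation genes 5 were higher and 2 lower (median 0.17; 2 to 7 higher with single libraries left out), with Spcs3 at 0.99 ± 0.15 and Ssr2 at -0.63 ± 0.16. Without doublets 3 were higher and 3 lower (median 0.0005), and at Igha of 5% or more 2 and 2 (median -0.14). In cells with few transcripts of other cells the counts were 3 and 3 (median -0.07). For ER to Golgi transport, 3 of 18 were higher (median 0.20), against 11.4% of all genes, and none without mucosa 2 (median 0.15) or mucosa 3 (median 0.18).

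**Figure D5:**
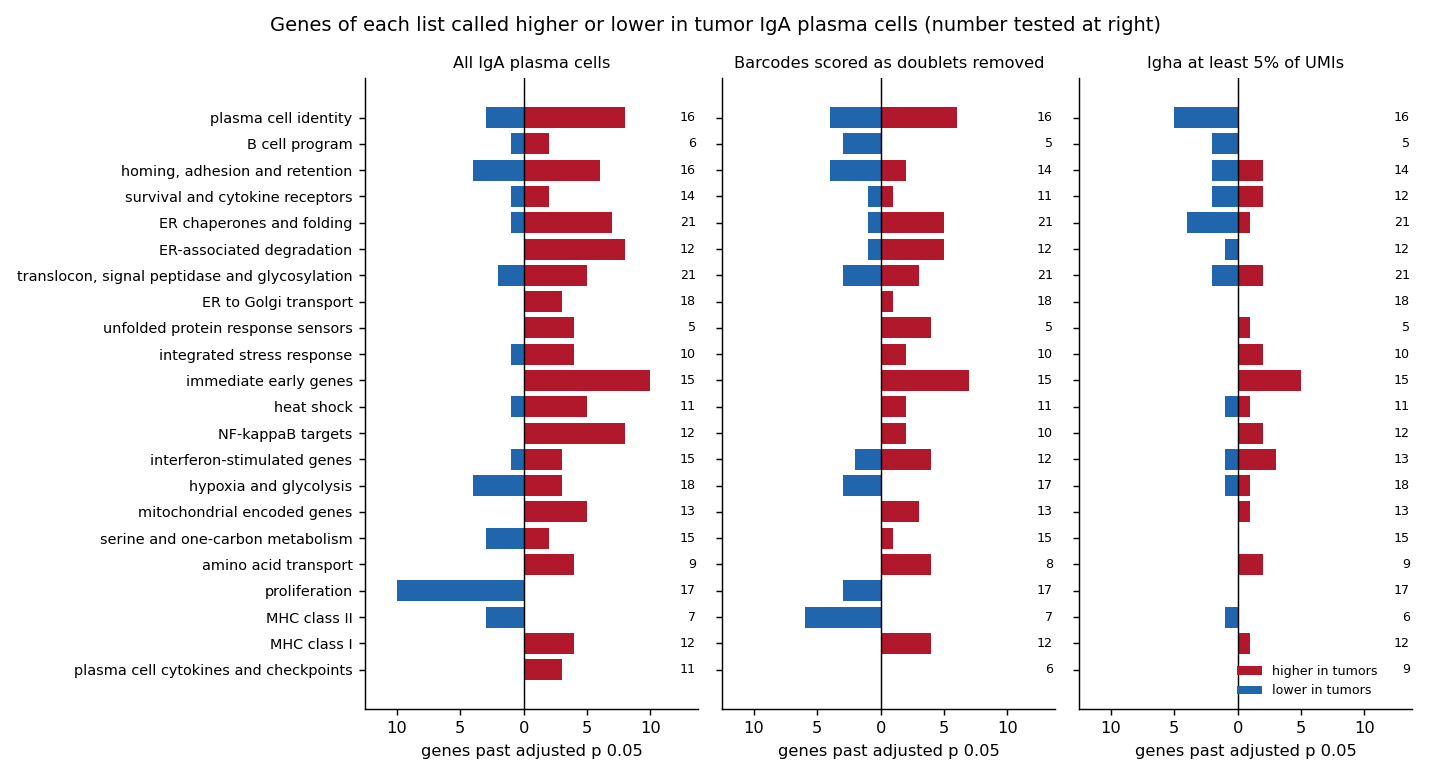
Number of genes of each list higher (right) and lower (left) in tumor IgA plasma cells, for all members, for members not scored as doublets and for members with Igha at 5% or more of UMIs. Over all genes tested in all members, 11.4% were higher and 12% lower. Without doublets 447 were higher and 547 lower of 8838 genes, and at Igha of 5% or more 218 and 220 of 9319.

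Immediate early genes, which respond within minutes to growth factors and also to tissue dissociation, were higher for 10 of 15 (median 1.18), with 7 after doublets were removed (median 1.13) and 5 at Igha of 5% or more (median 1.07). Fosb was 45.9, 124 and 183 CPM in mucosa and 205 to 518 in tumors (log2 difference 1.72 ± 0.32), and Junb was 147, 112 and 132 CPM against 224 to 472 (1.44 ± 0.21). Other tumor barcodes held 1268 CPM of Junb, more than the IgA plasma cells. Of 12 NF-kappaB targets 8 were higher (median 1.66). Without mucosa 3 there were 3 (median 1.40), and without doublets 2 of 10 (median 1.27). Nfkbia, the inhibitor that NF-kappaB induces, was 239, 139 and 138 CPM against 394 to 645 (1.60 ± 0.21) and held in all 27 alternatives, while other tumor barcodes averaged 763 CPM. Of 11 heat shock genes 5 were higher and 1 lower, 2 being higher without mucosa 1 and 1 without mucosa 3 (median 0.49 for both, against 0.56), and 2 or 3 without mucosa 2 or any of tumors 3 and 5 to 8. Of 15 interferon-stimulated genes 3 were higher and 1 lower, against 11.4% and 12% of all genes. Bst2, which tethers virions at the membrane, was 548, 577 and 769 CPM against 1093 to 1601 (1.26 ± 0.16), above the 195 CPM of other tumor barcodes. Without tumor 3 there were 5 higher (median 0.47), with single libraries left out 0 to 2 were lower, and in cells with few transcripts of other cells 1 of 12 was higher and 2 lower (median -0.30, against 0.36 in all members).

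Cell cycle genes were lower, with 10 of 17 proliferation genes down and none up in the fit over all members (median -0.91). Top2a, a topoisomerase of dividing cells, was 161, 157 and 172 CPM in mucosa and 51.9 to 124 in tumors (log2 difference -0.91 ± 0.22), and Stmn1, a microtubule regulator, 367, 408 and 455 CPM against 78.1 to 225 (-1.23 ± 0.25). Mki67 did not pass (-0.18 ± 0.22, adjusted p = 0.608). Other mucosa barcodes held 137 CPM of Top2a and 509.6 of Stmn1. Without doublets 3 of the 17 were lower at a median of -0.80, and at Igha of 5% or more none was, at a median of -0.14. Glycolysis and hypoxia genes were split, with 3 of 18 higher and 4 lower (median 0.08), against 11.4% and 12% of all genes. Without doublets 0 were higher and 3 lower of 17 (median -0.16). Tpi1, a glycolytic enzyme, was lower (239, 384 and 272 CPM against 87.8 to 169; -1.18 ± 0.18). Without mucosa 2 the counts were 2 higher and 1 lower (median 0.18), and with single libraries left out 1 to 6 were lower. Of 13 transcripts encoded by mitochondria 5 were higher (median 0.59), and 1 without mucosa 3 (median 0.74) and 3 without mucosa 1, mucosa 2 or any of tumors 1, 3, 6, 7, 8 and 9. Of 15 tested genes of serine and one-carbon metabolism, the folate-dependent pathway that the supplemented diet feeds, 2 were higher and 3 lower (median 0.11), against 11.4% and 12% of all genes. A single gene was lower without mucosa 2, and 4 were higher without mucosa 1. Without mucosa 3 none of 17 passed in either direction (median -0.06).

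Antigen presentation genes were counted by class, and the classes were not tested against each other. For scale, 11.4% of all genes were higher and 12% lower in all members. Without doublets these were 447 and 547 of 8838 genes, and at Igha of 5% or more 218 and 220 of 9319. Of 12 genes of MHC class I, 4 were higher and none lower in the fit over all members (median 0.24), with B2m, the invariant light chain, at 2124, 1816 and 1454 CPM in mucosa and 2259 to 3426 in tumors (log2 difference 0.85 ± 0.17). The class I median was 0.05 without doublets, again with 4 higher, and -0.19 at Igha of 5% or more, with 1 higher. Of 7 MHC class II genes, 3 were lower (median -0.32), all of them chains of the peptide exchange factor H2-DM, with H2-DMa at 82.6, 107 and 109 CPM against 41.9 to 81.8 (-0.61 ± 0.20), while Cd74, the invariant chain, missed the threshold (0.33 ± 0.20, adjusted p = 0.245). No class II gene passed without mucosa 3 (median -0.32) and 1 without mucosa 2 (median -0.15) or tumor 5 (median -0.34), and 6 of 7 were lower without doublets (median -1.10). Of 11 tested cytokine and checkpoint genes, 3 were higher, among them Cd274, which encodes the checkpoint ligand PD-L1 (108, 28.1 and 82.4 CPM against 95.2 to 214; 1.22 ± 0.34). Cd274 lost its call without doublets, and none of the 6 tested then passed (median -0.42, against 0.83 in all members). None of 11 was higher without mucosa 3 (median 1.32) and 1 without mucosa 2 (median 0.85), while without tumor 2 there were 2 higher and 2 lower of 9 (median 0.84). Il10, an anti-inflammatory cytokine, was 22.9, 11.2 and 4.33 CPM in mucosa and 0 to 12.7 in tumors (-1.64 ± 0.89, adjusted p = 0.202).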

How the data were processed

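The deposited counts were filtered feature-barcode matrices of UMI counts per gene and barcode, which the authors made from droplet libraries (10x Genomics 3′ kit, version 3.1) with Cell Ranger against mm10; the submitters' processing notes name version 6.0.0 and the study's methods another. No normalization had been applied. The members and gene lists were chosen with earlier results of these data known, so counts over them are descriptions.

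Barcodes were kept and IgA plasma cells chosen as stated in the report. A class was called where its constant genes held 1% of the UMIs or more and outnumbered those of the other classes together, a light chain type from 10 constant gene UMIs, and V genes where the top V gene of a chain held at least 3 UMIs and 2 of every 3 V gene UMIs of that chain. Doublets were scored per library against simulated barcode pairs (expected rate 0.8% per 1000 barcodes) and kept in the main fit. UMIs were summed per library with immunoglobulin and definition genes left out. Summed depth was 435960, 533650 and 922849 UMIs in mucosa 1, 2 and 3 and 790311 to 3650823 in tumors, so low transcripts are least precise in mucosa. Sums were tested with edgeR 4.0.16 (R 4.3.3; TMM, filterByExpr, quasi-likelihood, Benjamini-Hochberg adjusted p below 0.05) without a mouse term, the study stating no test for single cells. The SE given with a log2 difference is approximate, derived as the size of the difference divided by the square root of the test's F statistic. Shares were compared by the mean over mice of tumors minus mucosa, with exact permutation of tissue labels within mice in Python 3.11.15.

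Named genes were the 15 most changed in each direction, by log2 difference, among genes called, not overlapping between groups, at 50 CPM or more in the group where they were higher and at least as abundant there as among the other barcodes of that tissue; genes with provisional names (Gm or Rik) were not named, and members of the lists could be named with their lists. All 30 lie in the GRCm38 annotation, and 5 share exon bases with another gene on the same strand: Slpi, Ifnar2, Ppp1r10, Hist1h1e and Gimap7. Same-mouse libraries pair by animal; the correlation of their deviations from the group means was 0.143 for mouse A, -0.00258 for B and -0.0392 for C. On simulated counts for 9758 genes, 200 of them changed, the fit recovered 100% of 4-fold and 35% of 2-fold changes, with 6 false calls (4.26% of calls). The changed genes were drawn from those averaging more than 50 UMIs per library, so the recovery does not cover genes with lower counts. The simulated libraries were independent, with a fixed dispersion, no mouse effect and no transcripts of other cells. The false call rate therefore does not cover those features of the data. IgG plasma cells numbered 2 to 11 per library, below the 20 needed, so the planned comparison of classes was not run. Mx1 and Vimp are not named in the files. Alternatives included DESeq2 1.42.0, a mouse block, other cell limits and leaving out each library.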

Additional observations from a re-analysis of the deposited data

Results flagged for a closer look

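Of 161 results checked over the 10 tumors, 8 had a single tumor far from the others by Dixon's test (95% critical value; about 1 in 20 groups is flagged by chance). Tumor 2 stood high for Klf6 (200.2 CPM, others 97.7 to 151), Nupr1 (82.5 CPM, others 12.7 to 46.3) and S100a10 (649 CPM, others 136 to 400.5). Tumor 10 stood high for the cyclin Ccnb1 (32.9 CPM, others 7.48 to 19.7), tumor 6 for Dusp1 (231 CPM, others 108 to 169.6) and tumor 8 for the amino acid transporter Slc7a5 (82.5 CPM, others 37.5 to 50.9). Tumor 3 stood low for Serpina3g (25.8 CPM, others 59.0 to 97.0) and tumor 5 for mt-Nd4l (395 CPM, others 625 to 799). Klf6, Dusp1, Nupr1 and mt-Nd4l, and Shmt1 given next, were below the other barcodes in the group where they were higher, as were Icam1, H2afz and Tgfb1 among the genes that changed sign with the processing.

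In 3 results every tumor of a mouse lay on 1 side of its mucosa and every tumor of another mouse on the opposite side; these differences between mice were not tested. The percent of cell pairs with the same heavy V gene, as the mean of tumors minus mucosa, was 0.222 in mouse B, 1.19 in mouse C and -4.33 in mouse A. IgA plasma cells per 100 Ptprc barcodes differed by 3.75 in mouse C, -2.0 in mouse A and -3.77 in mouse B. Shmt1, a serine hydroxymethyltransferase of the folate cycle, differed by 2.58 CPM in mouse C, -15.9 CPM in mouse A and -7.95 CPM in mouse B.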

How the results depend on the processing

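The count of 2323 changed genes (1129 higher, 1194 lower) was 2323 (1167 and 1156) with mouse as a replicate block and 2291 (988 and 1303) with DESeq2, and 1757 (840 and 917) with the tumors of each mouse summed. It was 994 (447 and 547) with doublets removed, 438 (218 and 220) at Igha of 5% or more, 488 (211 and 277) in cells with few transcripts of other cells, and 1032 (522 and 510) in sums thinned to the shallowest library, an alternative chosen after seeing the data; these sets hold fewer cells or UMIs, and no gene called in both fits had the opposite sign. Leaving out single libraries gave 1207 to 2505 changed genes (581 to 1250 higher, 626 to 1338 lower), with 1443 (701 and 742) without mucosa 2 and 1207 (581 and 626) without mucosa 3. The share difference ranged from 1.69 to 2.96 with single libraries left out and was -0.673 per 100 Ptprc barcodes. Per 100 barcodes with Cd3e or Ms4a1, genes that the definition excludes from members, it was 43.1 (exact permutation p = 0.08). IgA of plasma cells ranged from 6.96 to 9.83 and was 29.3 at Igha of 5% or more, where the limit itself removes IgA cells. IgG ranged from -3.02 to -0.925 and was -1.42 at Igha of 5% or more. Lambda ranged from -3.12 to -1.56, and passed with doublets removed (-2.45, p = 0.04) and with Mzb1 and Jchain at 10 or more (-2.52, p = 0.0133, exact permutation). Same-heavy-gene pairs ranged from -2.05 to 0.704, and were 0.531 with V calls from 5 UMIs. Same-pair cells ranged from -0.441 to -0.227, and were -0.295 at Igha of 5% or more and -0.449 with V calls from 5 UMIs (exact permutation p = 0.133 for each). In these settings mucosa 1 and mucosa 2, respectively, had too few cells, and the 15 assignments left allow no p below 0.0667. V pair sharing ranged from 0.162 to 0.258 (exact permutation p = 0.000794 to 0.00317). Single genes that changed sign were Tgfb1 (-0.0027) without doublets, H2afz (0.14), Cd79a (-0.25), Icam1 (-0.11), Ccnb1 (0.38), Dnajc3 (-0.066) and Lman1 (-0.077) at Igha of 5% or more, and Selplg (-0.15) and Icam1 (-0.19) in cells with few transcripts of other cells. The cause of these changes was not tested. Over named and listed genes, 3543 values kept direction and call, 488 lost the call and 9 changed sign. With mouse as a block, 2105 of the 2323 genes were called again.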
